A study of Mus musculus with 18 samples.

Results

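Basophils and mast cells are the cells of the body that hold histamine and carry the high-affinity receptor for IgE on their surface. The genes followed here are 8 that mark them: Mcpt8, Prss34, Cpa3, Fcer1a, Ms4a2, Hdc, Gata2 and Cd200r3. The 8 were chosen by symbol, with earlier results of these data known. All 8 were found among the 55385 genes of the deposited table, and all 8 were among the 18634 genes tested. The material was poly(A) RNA from whole spleens of adult mice, 18 libraries with 6 per genotype, 3 male and 3 female. WT mice were C57BL/6J. Dp16 mice carry an extra copy of the part of chromosome 16 from Lipi to Zbtb21 and serve as a model of trisomy 21. Dp16_2xIFNRs mice carry the same duplication with the dosage of the interferon receptor genes returned to normal. No group was treated, and the labels name the strain background of WT only. Age labels ran from 17.1 to 18 over the 18 libraries, in a unit that is not interpreted here. The labels number the samples within a genotype, and p-values measure the spread between those samples.

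Basophils form in the bone marrow from granulocyte progenitors and circulate as rare blood cells, whereas mast cells mature and stay in tissues. Both cells are driven by the transcription factor GATA2, and basophils expand in response to interleukin 3. Crosslinking of receptor-bound IgE makes them release histamine and proteases from granules and produce leukotrienes and interleukin 4. Mouse basophils are set apart by the granule proteases encoded by Mcpt8 and Prss34, while connective tissue mast cells hold chymases and tryptases encoded by Cma1, Mcpt4 and Tpsb2. In RNA from whole spleen, a change in the number of cells of a type and a change in RNA per cell cannot be told apart.

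The 8 genes lie on 8 chromosomes (GRCm38, GENCODE vM21). Mcpt8 (ENSMUSG00000022157.8) spans 56082166 to 56085273 on the minus strand of chromosome 14, inside the chymase and granzyme cluster. Prss34 (ENSMUSG00000056399.2) spans 25298394 to 25300165 on the plus strand of chromosome 17, in the tryptase cluster. Cpa3 lies on chromosome 3 (20215620 to 20242181, minus strand) and Fcer1a on chromosome 1 (173221284 to 173227214, minus strand). Ms4a2 lies on chromosome 19 (11615523 to 11623719, minus strand) and Hdc on chromosome 2 (126593667 to 126619299, minus strand). Gata2 lies on chromosome 6 (88193891 to 88207032, plus strand). Cd200r3 is on chromosome 16 (44943678 to 44981380, plus strand), but 30.6 Mb before the start of the triplicated interval (75540514 to 97962622), so 0 of the 8 genes are carried in an extra copy.

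The stretches before the start sites are shown because GATA2, itself a member, binds DNA at GATA motifs, and the members differed widely in how they moved. The 5 sequences are the 250 bases before the RefSeq start (GRCm38.p6), read 5′ to 3′ on the gene's strand, of the 3 genes with the largest fold changes, of the beta chain of the IgE receptor and of Cd200r3, which was not called. Capitals mark matches on either strand to a GATA motif, spelled AGATAA or ending in G as in AGATAG, and likewise beginning with T as in TGATAA and, with both changes, TGATAG. They lie at chr14:56085198-56085447 (minus), chr17:25298144-25298393 (plus), chr1:173227230-173227479 (minus), chr19:11623720-11623969 (minus) and chr16:44943428-44943677 (plus).
Mcpt8: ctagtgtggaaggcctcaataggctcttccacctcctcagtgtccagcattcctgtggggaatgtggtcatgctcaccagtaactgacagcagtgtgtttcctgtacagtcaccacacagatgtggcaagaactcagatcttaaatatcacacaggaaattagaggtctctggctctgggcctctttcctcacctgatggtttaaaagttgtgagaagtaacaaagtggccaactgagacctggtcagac
Prss34: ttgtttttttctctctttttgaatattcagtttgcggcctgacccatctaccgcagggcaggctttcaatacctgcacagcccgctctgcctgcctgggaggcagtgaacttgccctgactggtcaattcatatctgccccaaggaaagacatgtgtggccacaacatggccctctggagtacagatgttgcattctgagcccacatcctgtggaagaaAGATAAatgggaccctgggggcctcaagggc
Fcer1a: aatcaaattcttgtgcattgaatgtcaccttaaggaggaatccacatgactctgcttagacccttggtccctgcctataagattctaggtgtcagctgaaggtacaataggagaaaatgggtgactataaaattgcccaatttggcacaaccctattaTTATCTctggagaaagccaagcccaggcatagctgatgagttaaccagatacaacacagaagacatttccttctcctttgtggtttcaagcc
Ms4a2: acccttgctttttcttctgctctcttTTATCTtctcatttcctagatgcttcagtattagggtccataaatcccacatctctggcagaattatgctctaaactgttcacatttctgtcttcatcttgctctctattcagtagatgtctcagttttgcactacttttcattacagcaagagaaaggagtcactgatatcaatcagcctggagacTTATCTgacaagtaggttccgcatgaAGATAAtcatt
Cd200r3: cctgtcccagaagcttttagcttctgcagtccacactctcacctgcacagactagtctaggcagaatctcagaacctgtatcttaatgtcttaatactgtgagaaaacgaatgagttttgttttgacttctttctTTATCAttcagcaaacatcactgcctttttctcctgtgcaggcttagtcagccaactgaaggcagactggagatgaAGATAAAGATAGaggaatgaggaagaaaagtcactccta

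RefSeq held 9 start windows for the 8 genes, 2 of them for Gata2, each of 250 bases before to 50 bases after the start. A GATA motif of the 4 spellings was found in 6 of the 9 windows, those of Prss34, Cpa3, Fcer1a, Ms4a2, Hdc and Cd200r3, against 29.8% of 32817 windows of the same length in RefSeq. The match began 31 bases before the start in Prss34, 46 in Cpa3, 92 in Fcer1a and 221 in Hdc. Ms4a2 held 3 matches (224, 37 and 11 bases before the start) and Cd200r3 held 3 (115, 39 and 33 bases before it). Mcpt8 and both Gata2 windows held none of these letters. The RUNX motif TGTGGT was found on either strand in 3 windows (Mcpt8, Cpa3 and Fcer1a; 16.8% of all windows), with 2 matches in Mcpt8, and the STAT5 motif TTCNNNGAA in 0 (8.29% of all windows). No match of 1 motif overlapped a match of another in these windows. These are matches of letters, not measured binding sites, and the motifs were present in members that were called and in Cd200r3, which was not.

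Library totals ran from 33998427 to 53021480 counts. Of the spleen check genes, which mark B cells, T cells, follicular stroma and red pulp macrophages, 10 of 10 were detected and tested. Gm42418, a gene model over ribosomal RNA sequence, took over 4% of counts in 4 libraries (WT replicate 4, Dp16 replicates 2 and 3, Dp16_2xIFNRs replicate 5). Below, CPM is the count scaled to the library total, and the error is the SD over 6 libraries. Fold changes and their SE come from 1 edgeR quasi-likelihood fit with TMM scaling over all 18634 genes. Called genes are those with an adjusted p (Benjamini-Hochberg) under 0.05. TMM scales each library by more than its total, so a fold change is not exactly the ratio of mean CPM.

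The comparison of Dp16 with WT asks which genes the extra interval moves in the spleen. Of the 8 genes, 6 were called higher in Dp16 and 0 lower, against 16.6% of all tested genes called higher. The members were chosen with earlier results of these data known, and Fcer1a passed the filter on low counts through the Dp16 groups. This count and that of Dp16_2xIFNRs below are therefore descriptions. Mcpt8 and Prss34, the basophil proteases, rose most, followed by Fcer1a, Cpa3, Ms4a2 and Hdc. Gata2 and Cd200r3 were not called. The median log2 fold change of the 8 was 1.5, against -0.01 over all tested genes and 0.54 over all genes called higher. Of all called genes 55.7% were higher, and this share was 43.4% when scaled by the upper quartile and 36.1% by limma-trend fitted to log2(RPKM + 0.1), where the median of all genes moved to -0.13. The members called numbered 5 to 8 over 34 alternatives.

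**Figure D1:**
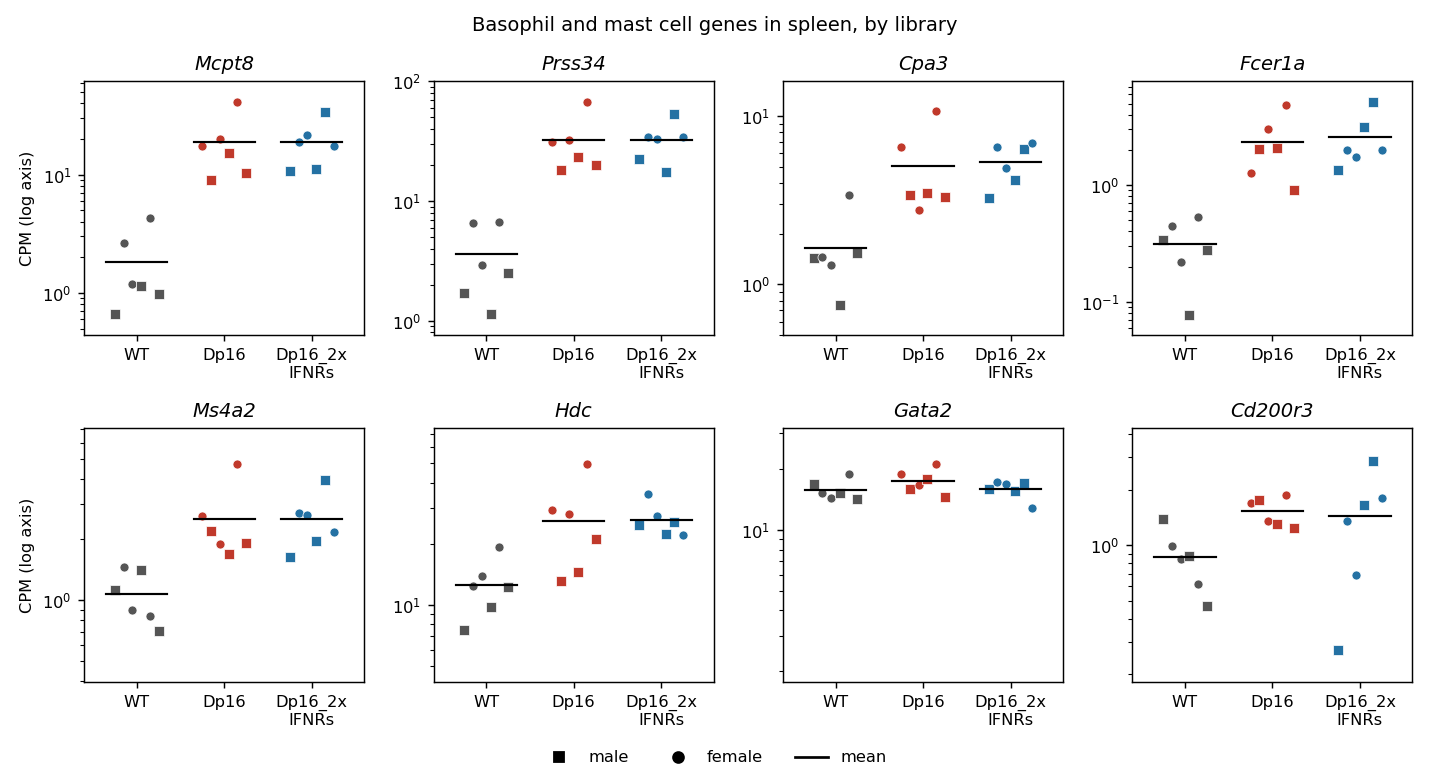
CPM of each of the 8 genes in every library on a log axis, by genotype; squares are males, circles are females and the line is the mean of 6. For Mcpt8, Prss34, Fcer1a and Ms4a2 every Dp16 and Dp16_2xIFNRs library lies above every WT library, while the Gata2 libraries overlap. The share of all tested genes that separate in this way was not counted; 29.8% were called in either direction in Dp16 against WT.

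Mcpt8 encodes a serine protease of basophil granules that belongs to the chymase locus by position but is not a chymase of mast cells. It ran from 0.660 to 4.26 CPM in WT (median 1.17, mean 1.81 ± 1.38), from 8.97 to 41.2 in Dp16 (median 16.3, mean 18.8 ± 11.7) and from 10.7 to 33.9 in Dp16_2xIFNRs (median 18.2, mean 19.0 ± 8.49). The lowest Dp16 library was above the highest WT library, and Dp16 replicate 5 stood above the other 5 Dp16 libraries. Full separation from WT was not counted over all tested genes, so it is a description here and for the genes below. The log2 fold change in Dp16 against WT was 3.51 ± 0.44 SE (95% interval 2.58 to 4.44, 11.4-fold, adjusted p = 5.829e-05). Without Dp16 replicate 5 and in every other omission of 1 library the log2 fold change stayed between 3.25 and 3.83.

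Prss34 encodes a tryptase of basophils, also known as mast cell protease 11. In WT it ran from 1.14 to 6.72 CPM (median 2.71, mean 3.58 ± 2.43), in Dp16 from 18.2 to 67.1 (median 27.3, mean 32.1 ± 18.1) and in Dp16_2xIFNRs from 17.5 to 53.0 (median 33.5, mean 32.4 ± 12.3). No library of either Dp16 genotype reached down to the WT range. The log2 fold change in Dp16 was 3.32 ± 0.39 SE (95% interval 2.49 to 4.14, 9.95-fold, adjusted p = 3.85e-05).

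Cpa3 encodes carboxypeptidase A3, a granule exopeptidase of mast cells and basophils. It ran from 0.749 to 3.38 CPM in WT (median 1.44, mean 1.64 ± 0.897), from 2.75 to 10.7 in Dp16 (median 3.45, mean 5.03 ± 3.10) and from 3.25 to 6.88 in Dp16_2xIFNRs (median 5.63, mean 5.35 ± 1.45). The groups overlapped through WT replicate 5, the highest WT library: 4 of 6 Dp16 and 5 of 6 Dp16_2xIFNRs libraries lay above it, and its next WT neighbour was at 1.53. In Dp16 the log2 fold change was 1.69 ± 0.29 SE (3.24-fold, adjusted p = 0.0002187).

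Fcer1a and Ms4a2 encode the alpha chain, which binds IgE, and the beta chain, which amplifies signalling, of the high-affinity IgE receptor. Fcer1a was the scarcest of the called genes in WT, at 0.0775 to 0.530 CPM (median 0.309, mean 0.315 ± 0.163), with 3 counts in WT replicate 4. It ran from 0.912 to 4.90 CPM in Dp16 (median 2.05, mean 2.36 ± 1.44) and from 1.35 to 5.20 in Dp16_2xIFNRs (median 1.98, mean 2.57 ± 1.42), with no overlap with WT. Its log2 fold change in Dp16 was 2.99 ± 0.46 SE (95% interval 2.03 to 3.95, 7.93-fold, adjusted p = 9.491e-05). Fcer1a passed the filter on low counts through the Dp16 groups, since 4 of 6 WT libraries were over its cutoff of 0.232 CPM. The other 7 genes passed it in all WT libraries.

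Ms4a2 ran from 0.702 to 1.46 CPM in WT (median 1.01, mean 1.07 ± 0.314), from 1.70 to 4.73 in Dp16 (median 2.06, mean 2.51 ± 1.13) and from 1.65 to 3.96 in Dp16_2xIFNRs (median 2.40, mean 2.51 ± 0.811). The genotypes did not overlap with WT, although the gap was narrow. Ms4a2 rose in Dp16 by a log2 fold change of 1.31 ± 0.29 SE (2.47-fold, adjusted p = 0.00175). The call ended when the number that some libraries of different genotypes share in their descriptions was used as a block (log2 fold change 1.39, adjusted p = 0.0858). That fit, called the description code block below, has no separate sex term, since libraries that share a number are of the same sex. Many libraries hold a number of their own, and WT and Dp16 libraries seldom share a number. The fit therefore compares few libraries and has less power: the SE of Ms4a2 was 0.49 under it, against 0.29 in the main fit. Whether a call that ended under it ended through lost power was not tested.

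Hdc encodes histidine decarboxylase, the enzyme that makes histamine, and is also transcribed in immature myeloid cells. It ran from 7.53 to 19.2 CPM in WT (median 12.3, mean 12.5 ± 3.98), from 13.2 to 49.7 in Dp16 (median 24.7, mean 26.1 ± 13.4) and from 22.1 to 35.3 in Dp16_2xIFNRs (median 25.3, mean 26.3 ± 4.85). In Dp16, 4 of 6 libraries lay above the highest WT library, and in Dp16_2xIFNRs 6 of 6 did. Hdc rose in Dp16 by a log2 fold change of 1.12 ± 0.19 SE (2.17-fold, adjusted p = 0.0003222).

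Gata2 encodes a transcription factor of stem cells, mast cells, basophils and megakaryocyte and erythroid progenitors. It ran from 14.2 to 18.9 CPM in WT (mean 15.8 ± 1.79), from 14.6 to 21.2 in Dp16 (mean 17.5 ± 2.36) and from 12.8 to 17.3 in Dp16_2xIFNRs (mean 15.9 ± 1.69), with medians of 15.3, 17.2 and 16.4. The 3 groups overlapped almost fully. In Dp16 its log2 fold change was 0.26 ± 0.10 SE (95% interval 0.05 to 0.48, adjusted p = 0.05591), which missed the threshold. It passed in 7 of 34 alternatives, which include this same fit read at a looser threshold, an adjusted p below 0.1. Others were a replicate block (0.26, adjusted p = 0.0292) and the omission of WT replicate 5 (0.31, adjusted p = 0.0403), of Dp16 replicate 6 (0.32, adjusted p = 0.0246) or of Dp16_2xIFNRs replicate 6 (0.26, adjusted p = 0.0381).

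Cd200r3 encodes an activating member of the CD200 receptor family on basophils and mast cells. It ran from 0.468 to 1.38 CPM in WT (median 0.860, mean 0.862 ± 0.317), from 1.25 to 1.88 in Dp16 (median 1.53, mean 1.54 ± 0.272) and from 0.271 to 2.88 in Dp16_2xIFNRs (median 1.5, mean 1.44 ± 0.915). In each of the Dp16 genotypes 3 of 6 libraries lay above the highest WT library, and Dp16_2xIFNRs replicate 1 lay below the lowest. For Dp16 its log2 fold change was 0.95 ± 0.41 SE (95% interval 0.11 to 1.79, adjusted p = 0.08265). Without Dp16_2xIFNRs replicate 1, which enters the shared estimate of the spread, the value was 0.96 with an adjusted p of 0.0272.

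Dp16_2xIFNRs against WT asks what remains when the interferon receptor genes are back at normal dosage. The same 6 of 8 genes were called higher and 0 lower, where 17.3% of all tested genes were called higher, and the median log2 fold change was 1.6 against -0.01 over all genes. The log2 fold change was 3.70 ± 0.44 SE for Mcpt8 (adjusted p = 4.723e-05), 3.49 ± 0.39 for Prss34 (adjusted p = 3.302e-05) and 3.19 ± 0.47 for Fcer1a (adjusted p = 6.251e-05). Cpa3 rose by 1.86 ± 0.29 (adjusted p = 9.846e-05), Ms4a2 by 1.35 ± 0.29 (adjusted p = 0.001199) and Hdc by 1.23 ± 0.19 (adjusted p = 0.0001403). Gata2 (0.13 ± 0.10, adjusted p = 0.3727) and Cd200r3 (0.86 ± 0.40, adjusted p = 0.1128) were not called, and Cd200r3 was called without Dp16_2xIFNRs replicate 1 (1.08, adjusted p = 0.016). This comparison and the one above use the same WT libraries, so their values are not independent.

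**Figure D2:**
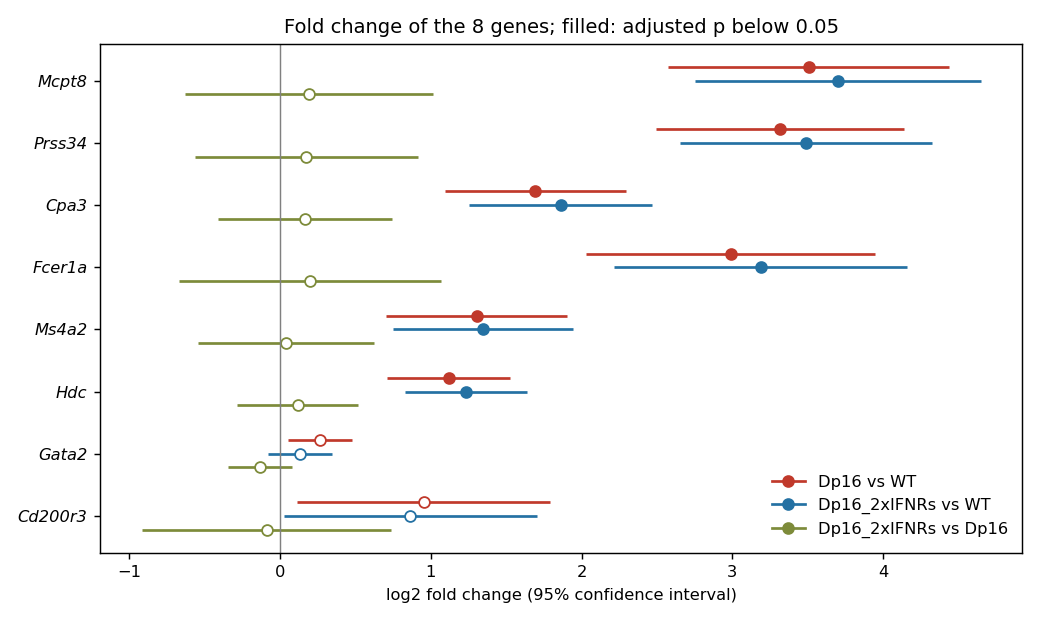
Log2 fold change of each gene in the 3 genotype comparisons, with its 95% confidence interval from the edgeR fit; filled points have an adjusted p below 0.05. The 6 called genes lie at 1.12 to 3.70 against WT, and all 8 intervals of Dp16_2xIFNRs against Dp16 include 0.

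The direct test of the receptor genes' dosage is Dp16_2xIFNRs against Dp16. None of the 8 genes was called by edgeR (0 at an unadjusted p below 0.05, and 0 by DESeq2 and limma voom), against 0.0215% of all tested genes called in either direction. The adjusted p was 1 for each gene. The log2 differences were 0.19 for Mcpt8 (95% interval -0.63 to 1.02), 0.17 for Prss34 (-0.57 to 0.92), 0.20 for Fcer1a (-0.67 to 1.07) and 0.17 for Cpa3 (-0.41 to 0.74). They were 0.04 for Ms4a2 (-0.54 to 0.62), 0.12 for Hdc (-0.28 to 0.52), -0.13 for Gata2 (-0.35 to 0.08) and -0.09 for Cd200r3 (-0.92 to 0.74). For Mcpt8 and Prss34 the intervals thus leave room for a difference of up to 2.02-fold and 1.89-fold, which these libraries could not tell from no difference. The small differences of Mcpt8, Prss34, Cpa3, Fcer1a and Ms4a2 turned negative without Dp16_2xIFNRs replicate 5, the library highest in 5 of the 8 genes.

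Levels of different genes were compared per length, as RPKM. In WT the mean order was Hdc (5.23 RPKM), Gata2 (4.29), Prss34 (2.93), Mcpt8 (2.17), Cpa3 (1.13), Ms4a2 (0.382), Fcer1a (0.316) and Cd200r3 (0.161), and the ranges of every neighbouring pair overlapped. In Dp16 the basophil proteases came first: Prss34 at 26.3 RPKM and Mcpt8 at 22.5, then Hdc (10.9), Gata2 (4.76), Cpa3 (3.47), Fcer1a (2.37), Ms4a2 (0.893) and Cd200r3 (0.288). In Dp16_2xIFNRs the order was the same, with Prss34 at 26.6 and Mcpt8 at 22.7 RPKM. Neighbours whose ranges did not overlap were Ms4a2 and Cd200r3 in Dp16, and Hdc and Gata2 as well as Ms4a2 and Cd200r3 in Dp16_2xIFNRs. The 2 IgE receptor chains changed order, since Fcer1a lay just below Ms4a2 in WT and above it in both Dp16 genotypes.

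**Figure D3:**
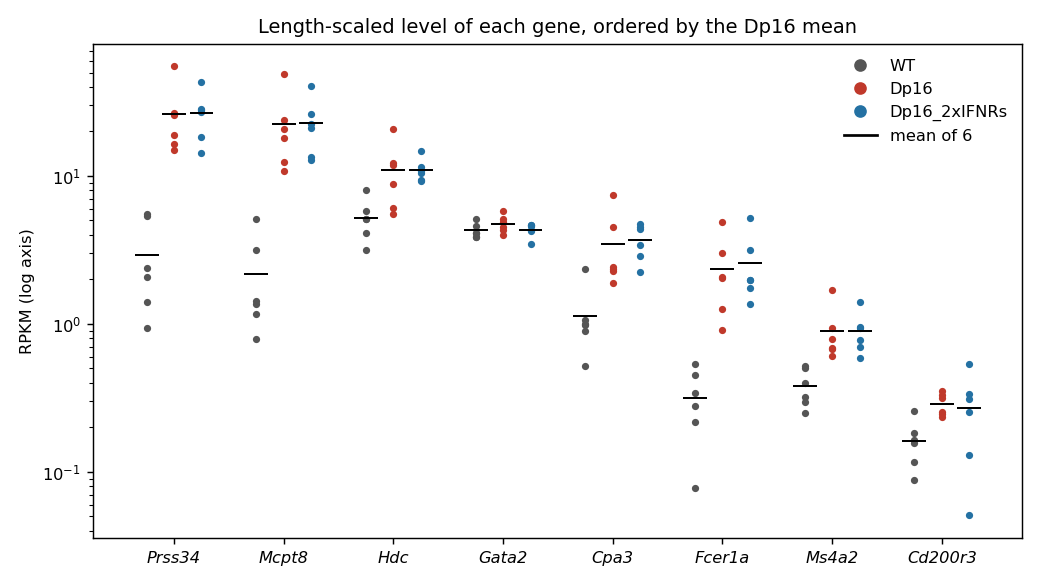
RPKM of the 8 genes in every library on a log axis, ordered by the Dp16 mean; points are libraries and lines are means of 6. Prss34 and Mcpt8 move from below Gata2 in WT to above Hdc in both Dp16 genotypes.

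Within a library the total and its scaling cancel, so ratios between members were also read. The ratio of Mcpt8 to each other member was taken as log2 of (count + 0.5). Mcpt8 was put on top after it was seen to have the largest fold change of the 8, so the differences between genotypes are a description, with no test. The ratio of Mcpt8 to Prss34 had a mean of -0.99 ± 0.55 (SD, n = 6) over WT libraries, of -0.81 ± 0.16 over Dp16 and of -0.80 ± 0.20 over Dp16_2xIFNRs, differences from WT of 0.18 and 0.19. Without WT replicate 4 these differences were 0.38 and 0.39. The ratio to Fcer1a differed by 0.63 in Dp16 and 0.54 in Dp16_2xIFNRs, and the first became 1.18 once the 4 libraries rich in Gm42418 were left out.

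The ratios of Mcpt8 to the other 5 members were higher than in WT in both Dp16 genotypes. In Dp16 the difference was 1.91 for Cpa3, 2.31 for Ms4a2, 2.51 for Hdc, 2.59 for Cd200r3 and 3.34 for Gata2, and in Dp16_2xIFNRs it was 1.78, 2.36, 2.46, 3.09 and 3.56.

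**Figure D4:**
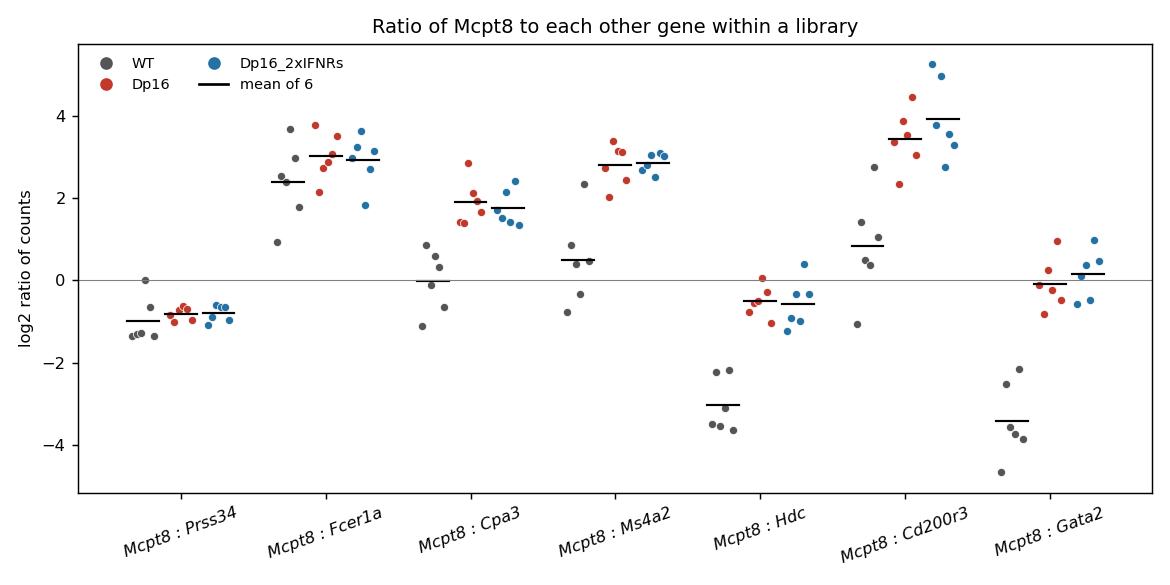
Log2 ratio of Mcpt8 to each other member within a library, from counts with 0.5 added; points are libraries and lines are means of 6 per genotype. The ratios to Prss34 and Fcer1a overlap between genotypes, and the ratios to Cpa3, Hdc and Gata2 in all Dp16 and Dp16_2xIFNRs libraries lie above all WT libraries.

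Within a genotype, 20 of 21 Pearson correlations of log2 CPM with Mcpt8 (7 genes in 3 genotypes of 6 libraries) were positive, and 2 passed after adjustment over the 21. Without the 2 libraries farthest from the Mcpt8 median 7 of the 21 were negative, 5 of them in WT (Cpa3 -0.472, Fcer1a -0.673, Ms4a2 -0.0066, Gata2 -0.7 and Cd200r3 -0.491) and 2 in Dp16_2xIFNRs (Fcer1a -0.976 and Cd200r3 -0.669). Of these, Cd200r3 in WT was negative with all 6 libraries too (r = -0.29), and Ms4a2 in WT was near 0 (r = 0.0425). The other relations named turned from positive, so they rest on the libraries left out. In Dp16, Prss34 followed Mcpt8 with r = 0.985 (exact permutation p = 0.00139, adjusted p = 0.0146) and rho = 1 (exact permutation p = 0.00278, adjusted p = 0.0292), and r was 0.943 without the 2 libraries. In Dp16_2xIFNRs, Ms4a2 followed Mcpt8 with r = 0.969 and rho = 1 at the same exact permutation p and adjusted values, and r was 0.894 without the 2 libraries. In WT the relation of Prss34 with Mcpt8 (r = 0.853, exact permutation p = 0.0389, adjusted p = 0.117; rho = 0.771, exact permutation p = 0.103, adjusted p = 0.27) fell to 0.158 without replicates 2 and 5, so it rests on those libraries. The points share library scaling, and 0.00139 is the smallest exact permutation p that 720 pairings can give for r. Sex was not taken off these values. In Dp16 all 3 females lay above all 3 males for both Mcpt8 and Prss34, so their r includes any shared difference between the sexes.

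Single animals stood out across the members. Dp16 replicate 5, a female, was the highest Dp16 library for 8 of 8 genes, WT replicate 5, also a female, was the highest of WT for 6, and Dp16_2xIFNRs replicate 5, a male, was the highest of its genotype for 5. Dp16_2xIFNRs replicate 1 was the lowest of its genotype for 5. After removal of genotype and sex means, each member correlated positively over the 18 libraries with the mean of the other 7, from r = 0.813 for Mcpt8 and 0.762 for Prss34 to 0.435 for Hdc and 0.33 for Cd200r3, given as a description. The genes outside the 8 whose residual pattern was most like their mean, among 13053 candidates, were Eif4e3 (r = 0.825), Loxl3 (0.819), Trbv12-2 (0.809), Cradd (0.806), Wdr45b (0.801) and Trappc3 (0.792). None of these 6 belonged to a list below or was called between Dp16 genotypes and WT (adjusted p from 0.218 to 0.828).

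Sex was balanced in each genotype, and the members were read out between sexes in the same fit. None of the 8 was called between females and males by edgeR, against 0.258% of all tested genes called in either direction (0.204% higher in females and 0.0537% lower). At an unadjusted p below 0.05 in edgeR there were 4 of 8, against 1644 of all 18634 tested genes. DESeq2 called 1 of them, Hdc (adjusted p = 0.00696), and limma voom 0. The female over male log2 fold change was 0.64 ± 0.16 SE for Hdc (adjusted p = 0.1164), 0.87 ± 0.30 for Prss34 (adjusted p = 0.3835), 0.68 ± 0.23 for Cpa3 (adjusted p = 0.3612) and 0.85 ± 0.33 for Mcpt8 (adjusted p = 0.4627). Without Dp16_2xIFNRs replicate 5, the male with the highest values, Mcpt8 (1.17, adjusted p = 0.0393) and Prss34 (1.14, adjusted p = 0.0266) were called.

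By genotype, mean Mcpt8 was 0.925 CPM in males and 2.70 in females of WT, 11.5 and 26.1 in Dp16, and 18.6 and 19.4 in Dp16_2xIFNRs (n = 3 each). Prss34 was at 1.78 and 5.38, 20.5 and 43.6, and 31.0 and 33.8 CPM in males and females of the 3 genotypes, and Hdc at 9.88 and 15.1, 16.3 and 35.8, and 24.4 and 28.3. For these 3 genes all 3 females lay above all 3 males in WT and in Dp16 but not in Dp16_2xIFNRs. For Mcpt8 and Prss34 the exception in Dp16_2xIFNRs was male replicate 5 alone (33.9 and 53.0 CPM), and the other males lay below every female. For Hdc in WT the margin was 12.33 against 12.30 CPM. For Mcpt8 in WT it was 1.19 (female replicate 3) against 1.14 CPM (male replicate 4), with 44 counts in each of these libraries. The other members did not separate in this way in any genotype. In WT the females above all males numbered 1 for Cpa3, 2 for Fcer1a, 1 for Ms4a2, 1 for Gata2 and 0 for Cd200r3. How often females separate in this way over all tested genes was not counted. The change of the sex difference between genotypes, tested as a sex by genotype term for Dp16_2xIFNRs against WT, was -1.55 for Mcpt8 (unadjusted p = 0.05892), -1.51 for Prss34 (0.03239), -1.58 for Fcer1a (0.06966) and -0.43 for Hdc (0.2034) on the log2 scale, with an adjusted p of 1 for each in edgeR. On omission of 1 library this term spanned -1.89 to -0.72 for Mcpt8, -1.84 to -0.82 for Prss34 and -1.96 to -1.01 for Fcer1a. With Dp16 against WT as the contrast, 0 of 8 members had an unadjusted p below 0.05, and with Dp16_2xIFNRs against WT 1 did. In both, edgeR called 0% of all tested genes, with 439 and 745 genes at an unadjusted p below 0.05.

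The other genes of these cells were read from lists chosen with earlier results of these data known. Counts give called genes of those tested, to be set against 16.6% of all tested genes called higher and 13.2% lower in Dp16, and 17.3% and 14.2% in Dp16_2xIFNRs. Of 14 mast cell genes, 5 were tested; 2 were called higher and 0 lower in Dp16 (median log2 fold change -0.00), and 0 higher and 1 lower in Dp16_2xIFNRs (median 0.12). The 9 untested mast cell genes had at most 25 counts in any library, and Mcpt9 was at 0 in all 18. Cma1, the connective tissue mast cell chymase, was at 2.31 ± 1.07 CPM in WT, 1.68 ± 0.716 in Dp16 and 1.72 ± 0.588 in Dp16_2xIFNRs (log2 fold change in Dp16 -0.35, adjusted p = 0.4641).

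The chymase Mcpt4 was at 1.12 ± 0.367, 2.54 ± 1.67 and 1.82 ± 0.449 CPM, and was called in Dp16 (1.28 ± 0.36 SE, adjusted p = 0.009008) but not without Dp16 replicate 5 (0.83, adjusted p = 0.0579), under the description code block (1.04, adjusted p = 0.226) or on log2(RPKM + 0.01) (0.95, adjusted p = 0.0522). The tryptase Tpsb2 was at 0.734 ± 0.437, 2.50 ± 1.63 and 1.51 ± 0.925 CPM and was called higher in Dp16 (1.88 ± 0.52 SE, adjusted p = 0.009743), a call that ended under the description code block (0.98, adjusted p = 0.537). In Dp16_2xIFNRs neither passed (Mcpt4 0.81, adjusted p = 0.09125; Tpsb2 1.16, adjusted p = 0.09622), although Mcpt4 did without Dp16 replicate 5 (0.80, adjusted p = 0.0476) and Tpsb2 without Dp16_2xIFNRs replicate 3 (1.36, adjusted p = 0.0406). Kit, the stem cell factor receptor of mast cells and of stem and progenitor cells, was at 47.0 ± 3.68, 37.7 ± 3.45 and 35.4 ± 6.41 CPM. Its log2 fold change was -0.20 in Dp16 (adjusted p = 0.1164) and -0.29 in Dp16_2xIFNRs (adjusted p = 0.01932), and the latter call ended without WT replicate 5 (adjusted p = 0.05), Dp16_2xIFNRs replicate 5 (0.0545) or Dp16_2xIFNRs replicate 6 (0.0516), under the description code block (-0.32, adjusted p = 0.095) and on omission of the 4 Gm42418 libraries together (-0.22, adjusted p = 0.15). In Dp16, Kit passed as lower when scaled by the upper quartile (-0.26, adjusted p = 0.0385) and by limma-trend on log2 RPKM with 0.1 (-0.31, adjusted p = 0.0358) or 0.01 added (-0.32, adjusted p = 0.0363). The summed level of the 14 mast cell genes, mostly Kit, was 52.8 to 68.7 CPM in WT, 42.2 to 65.6 in Dp16 and 39.5 to 54.3 in Dp16_2xIFNRs.

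Around the IgE receptor, 14 of 14 signalling genes were tested, with 1 called higher and 7 lower in each Dp16 genotype against WT (median log2 fold change -0.18 and -0.22). The 1 that rose was Fcer1g, the gamma chain that the IgE receptor shares with other Fc receptors. It was at 168 ± 9.18 CPM in WT, 210 ± 20 in Dp16 and 223 ± 30.0 in Dp16_2xIFNRs (log2 fold change 0.44 ± 0.09 SE, adjusted p = 0.0007125, and 0.53, adjusted p = 0.0001542). Lyn, the kinase that first phosphorylates the receptor, fell by 0.29 in Dp16 (adjusted p = 0.003876), and Inpp5d, the phosphatase SHIP that restrains it, fell by 0.39 (adjusted p = 0.0006033). These downstream genes are also used by B cells, whose marker Ms4a1 fell by 0.60 in Dp16 (adjusted p = 3.098e-05) and by 0.48 in Dp16_2xIFNRs (adjusted p = 0.0001745); the part of B cells in these values was not tested.

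Of 13 cytokine and alarmin receptor genes and their signal carriers, 12 were tested, with 1 higher and 2 lower in Dp16 and 1 higher and 3 lower in Dp16_2xIFNRs (medians -0.14 and -0.09). Il3ra, the chain that binds interleukin 3, had a log2 fold change of -0.03 in Dp16 (adjusted p = 0.8857), its partner Csf2rb -0.14 (adjusted p = 0.3379), and Il3 itself was at 0 in all libraries. Il1rl1, the receptor for the alarmin interleukin 33 on basophils and mast cells and on some T and innate lymphoid cells, rose from 9.40 ± 4.20 CPM in WT to 22.8 ± 3.26 in Dp16 and 20.3 ± 5.88 in Dp16_2xIFNRs (1.44 ± 0.24 SE, adjusted p = 0.0002462, and 1.30, adjusted p = 0.000514). Stat5b, a signal carrier of the interleukin 3 receptor, fell by 0.26 in Dp16 (adjusted p = 0.006062), a call that ended under the description code block (-0.34, adjusted p = 0.0953).

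Of 17 mediator genes, 14 were tested, with 3 higher and 1 lower in Dp16 (median 0.32) and 5 higher and 1 lower in Dp16_2xIFNRs (median 0.52). Alox5, the lipoxygenase that starts leukotriene synthesis, was at 5.13 ± 1.15 CPM in WT, 12.3 ± 6.05 in Dp16 and 12.6 ± 2.52 in Dp16_2xIFNRs. It rose by a log2 fold change of 1.35 ± 0.19 SE in Dp16 (adjusted p = 4.812e-05) and 1.41 in Dp16_2xIFNRs (adjusted p = 3.449e-05), and its helper Alox5ap rose by 0.65 (adjusted p = 0.0003865) and 0.56 (adjusted p = 0.001205). Both are also abundant in neutrophils. Ltc4s, the leukotriene C4 synthase, had 0.21 in Dp16 (adjusted p = 0.3925) and 0.51 in Dp16_2xIFNRs (adjusted p = 0.02358); the latter call ended without WT replicate 5 or 6 or Dp16_2xIFNRs replicate 3 or 6 (adjusted p of 0.0502 to 0.0743). Il4, the basophil cytokine, was not called in Dp16 (-1.11 ± 0.94 SE, adjusted p = 0.4194).

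Among 12 lineage regulators, Dp16 had 5 called higher with 1 lower, and Dp16_2xIFNRs 3 higher with 1 lower (medians 0.16 and 0.14). Cebpa, which works with Gata2 in forming basophils, had a log2 fold change of 0.02 in Dp16 (adjusted p = 0.931), which turned to -0.04 with upper quartile scaling. Runx1, which is needed for basophils and lies in the triplicated interval, had 0.22 in Dp16 (adjusted p = 0.08301) and was called without WT replicate 5 (0.27, adjusted p = 0.0436). Gata1, a factor of red cells, platelets, mast cells and eosinophils, rose by 1.65 (adjusted p = 0.000855) and 1.73 (adjusted p = 0.0006064), and Gfi1, a repressor in granulocyte formation, rose by 0.51 in Dp16 (adjusted p = 0.002026). The Gfi1 call ended under the description code block (0.42, adjusted p = 0.254).

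Neighbouring and related genes were read because the proteases and receptors sit in clusters of close copies, where reads can be split between paralogs. In the chymase and granzyme locus 5 of 14 genes were tested; 2 were higher in Dp16, Mcpt4 and Ctsg, and 1 in Dp16_2xIFNRs (medians 0.88 and 0.81). Ctsg, a neutrophil granule protease gene, rose by 3.03 in Dp16 (adjusted p = 3.177e-06) and 2.74 in Dp16_2xIFNRs (adjusted p = 8.613e-06), while Gzmb of cytotoxic cells had -0.04 (adjusted p = 0.9011) and -0.36 (adjusted p = 0.1639). In the tryptase locus 4 of 10 were tested, with 2 higher in Dp16 and 1 in Dp16_2xIFNRs (medians 0.33 and 0.48). Of 13 other Ms4a genes 12 were tested, with 4 higher and 1 lower in Dp16 and 3 higher and 1 lower in Dp16_2xIFNRs (medians 0.09 and 0.20). Ms4a3, a gene of granulocyte progenitors and basophils, rose by 3.06 ± 0.26 SE (adjusted p = 1.909e-06) and 2.79 (adjusted p = 4.319e-06). Of the 4 genes of the CD200 receptor family list, 1 was higher and 1 lower in each Dp16 genotype (medians 0.48 and 0.54). Cd200r4, which like Cd200r3 signals through an adaptor, rose by 0.88 (adjusted p = 0.002081) and 0.72 (adjusted p = 0.008712), and both calls ended under the description code block (1.09, adjusted p = 0.0576, and 0.73, adjusted p = 0.0731). The inhibitory Cd200r1 had 0.25 (adjusted p = 0.2918) and 0.37 (adjusted p = 0.1015).

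Markers of other blood cells moved with the members. All 12 megakaryocyte and platelet genes were higher in both Dp16 genotypes (medians 1.22 and 1.15), as were 13 of 14 neutrophil genes (2.6 and 2.41) and 13 of 13 erythroid genes (1.58 and 1.67). The neutrophil gene not called was Cxcr2, at 26.5 ± 2.36 CPM in WT, 21.6 ± 5.86 in Dp16 and 20.8 ± 4.61 in Dp16_2xIFNRs. Its log2 fold change was -0.19 and -0.24. The summed levels of the lists ran from 503 to 2170 CPM in WT, 3210 to 11100 in Dp16 and 3780 to 6240 in Dp16_2xIFNRs for the neutrophil genes, from 307 to 551, 502 to 1510 and 448 to 1020 for the megakaryocyte and platelet genes, and from 6110 to 21100, 22100 to 39500 and 21300 to 42800 for the erythroid genes. Among 12 eosinophil genes 11 were tested, and Dp16 had 6 called higher with 1 lower, Dp16_2xIFNRs 5 higher with 1 lower (medians 0.66 in both), and they summed to 211 to 266, 220 to 454 and 251 to 371 CPM. Among them Prg2, the major basic protein gene that basophils also express, rose by 1.48 (adjusted p = 0.001539), Epx, the eosinophil peroxidase, by 2.02 (adjusted p = 0.003104), and Il5ra fell by 1.15 (adjusted p = 0.0001585). The calls of Prg2 (0.71, adjusted p = 0.35) and Epx (1.31, adjusted p = 0.436) ended under the description code block.

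Among 12 stem and progenitor genes, Dp16 had 3 called higher with 2 lower, and Dp16_2xIFNRs 3 higher with 4 lower (medians -0.14 and -0.15). Those called higher included Tal1, a factor of erythroid and megakaryocyte cells (1.70, adjusted p = 0.001928). Their summed level was 355 to 477 CPM in WT, 466 to 584 in Dp16 and 467 to 747 in Dp16_2xIFNRs. The 10 spleen check genes had 0 called higher and 7 lower in Dp16, and 0 and 6 in Dp16_2xIFNRs (medians -0.46 and -0.40). The part of these other cells in the changes of the 8 genes was not tested. In Dp16_2xIFNRs against Dp16, 0 genes of any list were called by edgeR.

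**Figure D5:**
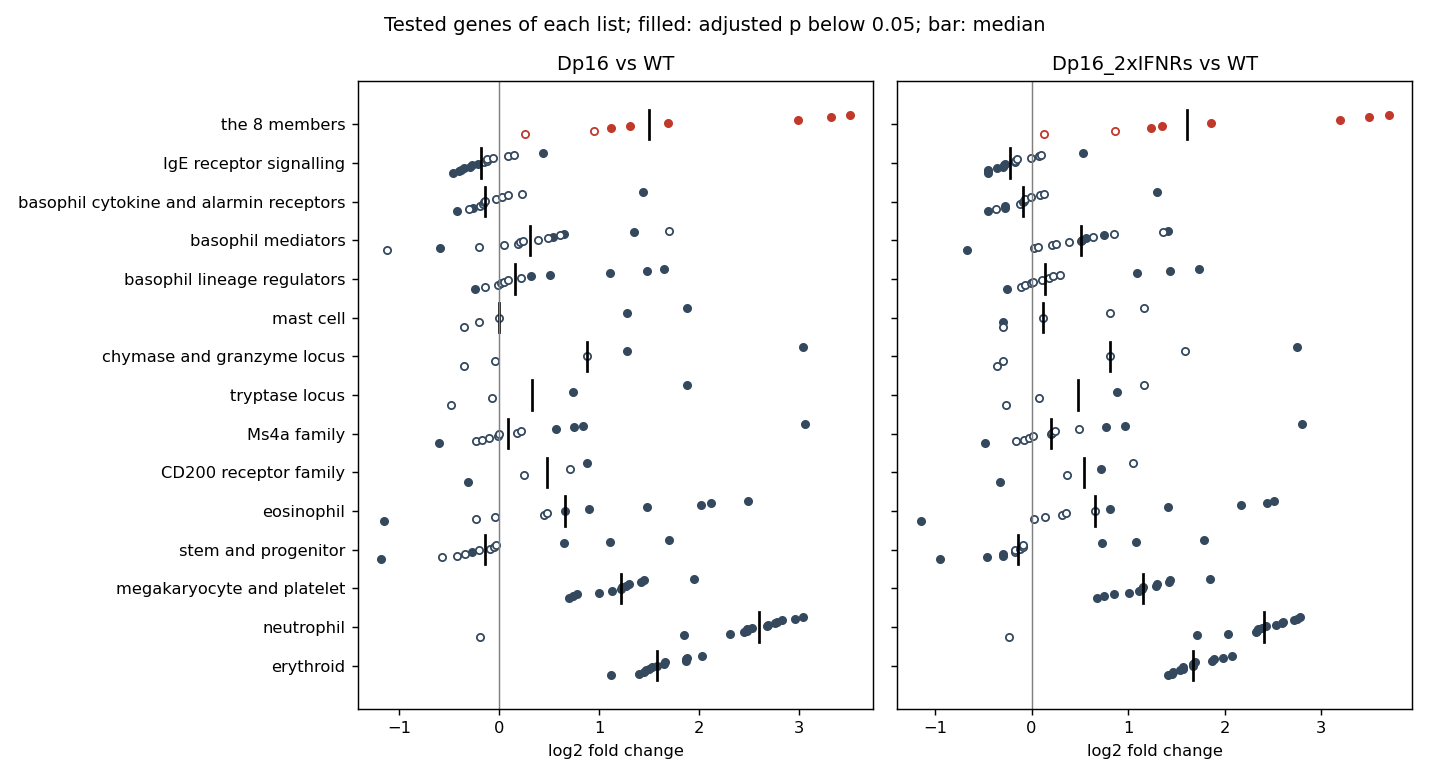
Log2 fold change of every tested gene of each list and of the 8 members, in Dp16 (left) and Dp16_2xIFNRs (right) against WT; filled points have an adjusted p below 0.05 and the bar is the list's median. Most IgE receptor signalling genes lie near or below 0, and the mast cell genes have medians of -0.00 and 0.12 with Mcpt4 and Tpsb2 to the right. The 8 members, the erythroid and megakaryocyte genes and the neutrophil genes other than Cxcr2 lie to the right.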

How the data were processed

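The members and the gene lists were chosen with earlier results of these data known. Counts are the authors' whole-number reads per gene, deposited as 1 table; per the submitters' processing notes the tools were HISAT2 2.1.0, HTSeq 0.6.1, SAMtools 1.5, FastQC 0.11.5 and bcl2fastq, on GRCm38, with no order or role given. Per the labels' protocols, libraries were poly(A)-selected and strand-specific; whether counting used strand is not given in the sources used here. RPKM values were deposited by the authors; over 11538 genes with at least 100 counts they equalled the count over library total and 1 length per gene, to a largest relative deviation of 6.7e-16.

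Genes were filtered with filterByExpr by genotype (10 counts, about 0.232 CPM, in 6 libraries), TMM-scaled and fitted in edgeR 4.0.16 (R 4.3.3, robust quasi-likelihood, genotype and sex as terms, all 18 libraries), with Benjamini-Hochberg adjustment over 18634 genes at 0.05. In data simulated for the 12 libraries of Dp16 vs WT over 17795 genes, 200 genes were changed. Of these, 56% of 2-fold and 84% of 4-fold changes were recovered, with 10 false among 150 calls. The real fit used 18 libraries and called 29.8% of all tested genes in Dp16 against WT, so these rates need not hold for it. Permutation tests used scipy 1.17.1. Relations and likeness used log2 CPM with a prior count of 2. Intervals are at 95%, and counts without molecular identifiers are not independent molecules. Libraries of 1 genotype were not copies (45 pairs, chi-square over its degrees of freedom 35.1 to 200).

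Named genes were the 8 members, a fixed set from each list, and the 2 genes of each list with the smallest p in Dp16 vs WT; the 6 most alike were taken by Pearson r to the members' mean. A result for 1 named gene is not reported here. Lists covered mast cells, IgE receptor signalling, receptors, mediators, regulators, eosinophils, stem and progenitor cells, megakaryocytes, neutrophils, erythroid cells, the chymase and granzyme locus, the tryptase locus, the Ms4a and CD200 receptor families and a spleen check. Alternatives were RLE and upper quartile scaling, TMM without haemoglobin, immunoglobulin and neutrophil genes, DESeq2 1.42.0, limma 3.58.1 as voom with quality weights or as trend on log2 RPKM after adding 0.1 or 0.01, no filter or 1 CPM in 6 libraries, an adjusted p below 0.1, other terms and blocks, 12 libraries, omission of the 4 libraries over 4% Gm42418, and omission of each library in turn. The ratios and their alternatives were added after the data were seen. Sample numbers are not known to pair animals: same-numbered libraries had a mean correlation of 0.019 after removal of genotype means (18 pairs, -0.13 to 0.20).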

Additional observations from a re-analysis of the deposited data

Results flagged for a closer look

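In 4 of 24 groups of 6 libraries, 1 library passed Dixon's 95% limit for 6 values. The measure was its distance in CPM from its nearest neighbour, relative to the range of the group. Chance gives about 1 in 20 for independent groups of normal values. CPM was not put on a log scale here and the groups share libraries, so 4 of 24 cannot be set against that rate. Dp16 replicate 5 was the high library in 3 of these 4 groups: Mcpt8 at 41.2 CPM against 8.97 to 19.9 in the other 5, Prss34 at 67.1 against 18.2 to 32.5, and Ms4a2 at 4.73 against 1.70 to 2.62. In WT, Cpa3 in replicate 5 was at 3.38 CPM against 0.749 to 1.53. Both animals are female. The Mcpt8, Prss34, Cpa3 and Ms4a2 calls in Dp16 against WT held when either library was left out.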

How the results depend on the processing

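The 6 calls of members in each comparison with WT moved to 5 to 8 in Dp16 and 6 to 7 in Dp16_2xIFNRs over 34 alternatives each, and 0 were called in Dp16_2xIFNRs against Dp16 in any. Between sexes, 1 member was called by DESeq2 and 1 with a library index term, both Hdc, and omissions of 1 library gave 0 to 2. Under a replicate block 7, 6 and 0 members were called in the 3 genotype comparisons, and the block called 3008 genes higher and 2526 lower in Dp16, 3090 and 2706 in Dp16_2xIFNRs, and 0 and 4 between them; 6 of 18 libraries correlated best with their own number. The block on description codes has no separate sex term, since libraries that share a code are of the same sex. WT and Dp16 libraries seldom share a code, so this block has less power than the main fit. It called 1692 genes higher and 835 lower in Dp16 against 3091 and 2462. It ended the Dp16 calls of Ms4a2, Mcpt4, Tpsb2, Prg2, Epx, Gfi1, Stat5b, Prss50 (adjusted p = 0.229), Cd200 (0.392) and Cd200r4, and the Dp16_2xIFNRs calls of Kit, Epx (0.0807), Cd200 (0.285) and Cd200r4. Under it Prss34 was at 4.09 and 4.12 and Fcer1a at 4.10 and 4.22 against WT. Over all other values, 4326 stayed the same, 32 lost and 37 gained a call, 67 turned sign and 19 moved. Staying the same meant direction and side of the threshold for fold changes, and a close count for lists. For correlations without 2 libraries it meant the same sign. Some gained calls are of the ratios, which are read above as a description only.

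Signs turned for values near 0, none of them called in the direction reported. Without the 4 libraries rich in Gm42418, Dp16_2xIFNRs against Dp16 was -0.43 for Mcpt8, -0.34 for Prss34, -0.21 for Cpa3, -0.11 for Fcer1a, -0.29 for Ms4a2 and -0.0811 for Hdc, and Il3ra (0.0543) and Gzmb (0.0676) turned in Dp16. Under limma voom, Prss34 was -0.0179 between the Dp16 genotypes and Fcer1a -0.0719 between sexes. Omissions of 1 library spanned -0.29 to 0.41 for Mcpt8, -0.24 to 0.36 for Prss34, -0.0149 to 0.41 for Cpa3, -0.18 to 0.47 for Fcer1a, -0.21 to 0.28 for Ms4a2 and -0.44 to 0.12 for Cd200r3 between the Dp16 genotypes. Cd200r3 between sexes was 0.0115 and 0.0736 on log2 RPKM with 0.1 and 0.01 added, 0.24 without the Gm42418 libraries, and -0.25 to 0.13 on omission of 1 library.

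In Dp16 against WT, Cebpa was -0.0428 with upper quartile scaling, -0.0041 with TMM without abundant genes, -0.10 with either RPKM value added, -0.0156 with no filter, -0.045 with the description code block, -0.0508 with the index term and -0.0673 to 0.12 on omissions; Il3ra spanned -0.14 to 0.035 and Gzmb -0.17 to 0.063. In Dp16_2xIFNRs against WT, Cebpa was 0.0463 with voom, 0.0625 with the code block, 0.0347 with the index term, 0.0042 in 12 libraries and -0.0821 to 0.0864 on omissions; Runx1 was -0.0165 and -0.0168 with 0.1 and 0.01 added to RPKM and Cma1 0.0876 with the code block. Il4 was -0.0329 with upper quartile scaling, -0.60 with voom, -0.41 and -1.32 with 0.1 and 0.01 added to RPKM, -0.41 with the replicate block, -0.51 with the code block, -0.21 with the index term and -0.31 to 0.30 on omissions. The cause was not tested. Fcer1a in WT and Il4 had few counts a library, which limits their precision.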
